A study of Bos taurus with 170 samples.

Results

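Of the transcripts that a growing oocyte stores for the embryo, 9 were followed by name: the growth factors GDF9 and BMP15, the egg coat genes ZP2, ZP3 and ZP4, and the oocyte factors ZAR1, NPM2, H1FOO and DPPA3. The deposited table of unique molecular identifier (UMI) counts lists 10772 genes and has a row for 8 of these 9. BMP15 has no row in it and is named only. H1FOO, an older symbol, is the gene that RefSeq now calls H1-8.

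The cells came from bovine embryos made in vitro, from oocytes of slaughterhouse ovaries that were matured and fertilised in culture and received no treatment. Of these embryos, 6 were collected on Day 2 after fertilisation at the 8-cell stage and 8 on Day 3 at the 16-cell stage, and all had been picked for the timing of their first cleavages, so they stand for well-developing embryos rather than for all. The coat itself, the zona pellucida, was dissolved with pronase before the blastomeres were separated. Sequencing was by SCRB-Seq, a plate-based method that tags the 3′ end of each captured mRNA molecule with a UMI, and 161 of 170 cells had 2000 or more UMI and were kept, 43 of Day 2 and 118 of Day 3.

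The zona pellucida is a glycoprotein coat that the oocyte secretes while it grows, and its ZP proteins bind sperm and take part in the block to further sperm entry. GDF9 and BMP15 are related ligands of the TGF-beta family, secreted by the oocyte to the follicle cells around it, where they act through SMAD proteins. ZAR1 is an RNA-binding protein of stored maternal mRNA, NPM2 is the nucleoplasmin of the egg, a histone chaperone, H1FOO is the linker histone of the oocyte, and DPPA3 protects methylated DNA in the zygote. Before the embryo transcribes its own genome, such mRNAs come from the oocyte, and much of this store is cleared as the genome is activated.

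UMI were summed over the cells of an embryo, so that the embryo was the replicate, and are given as CPM, the UMI of a gene per 1000000 UMI on genes. Totals ran from 438899 to 920192 UMI in Day 2 embryos, with 6 to 9 cells each, and from 294912 to 600185 in Day 3 embryos, with 13 to 17 cells each. The median was 75114 UMI per cell on Day 2 and 24016.5 on Day 3. Of 6 markers of early embryo cells, NLRP5, OOEP, SALL4 and POU5F1 had a row and were found in every embryo, at a summed 1228 to 1449 CPM on Day 2 and 873 to 1712 on Day 3. Of 14 cumulus and granulosa cell markers, 12 had a row, at a summed 515 to 632 CPM on Day 2 and 201 to 585 on Day 3. STAR and HAS2 made up most of that, and the other 10 reached 51.8 to 77.2 CPM on Day 2 and 44.1 to 122 on Day 3, with INHA at 0 in all Day 2 embryos. Of 6 sperm markers 3 had a row, at no more than 7.72 CPM in any embryo. The 170 cells of the table carried 93 distinct barcodes, of which 77 served in 2 cells each, never in the same embryo. Gene UMI per UMI of the ERCC spike-in RNA were 64.8 to 71.7 in the Day 2 embryos and in Day3-E1, Day3-E2 and Day3-E3, but 32.6 to 40.2 in Day3-E4 to Day3-E8. That step moved with the set of barcodes, and its part in the results was not tested. The set of Day3-E3 could not be settled from its shared barcodes.

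On Day 2, DPPA3 stood at 2764 ± 364 CPM (SD, n = 6), rank 19 of 10772 genes, and was above the next member, NPM2, in 6 of 6 embryos with no overlap. Each captured molecule gives 1 UMI at its 3′ end whatever its length, so levels in CPM were set side by side without a length correction. NPM2 at 1278 CPM, ZP4 at 1190, ZP2 at 1164, GDF9 at 1042 and H1FOO at 951 followed, and each neighbour in that order held its place in only 4 of 6 embryos, with ranges that overlapped. ZP3 at 290 CPM and ZAR1 at 268 lay well below H1FOO, with no overlap to it, and also kept their order in 4 of 6. The Day 2 embryos were alike in these transcripts, and the sum of the 8 members was 8946 ± 321 CPM (SD, n = 6).

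On Day 3 the order changed and the embryos spread apart. DPPA3 had the highest level of the 8 in 8 of 8 embryos, at 3286 ± 1037 CPM (SD, n = 8) and rank 9. ZP4, H1FOO, ZP2 and NPM2 followed with means of 864, 819, 697 and 627 CPM, in an order held by 4 or 5 of 8 embryos between neighbours. GDF9 at 473 CPM was below NPM2 in 8 of 8 embryos, and ZAR1 at 83.9 CPM was below ZP3 in 8 of 8. The sum of the members was 7069 ± 2536 CPM (SD, n = 8), from 2543 in Day3-E8 to 9765 in Day3-E5. A lower sum per embryo could mean fewer molecules in each cell or fewer cells that hold them, and from the sums alone these cannot be told apart.

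**Figure D1:**
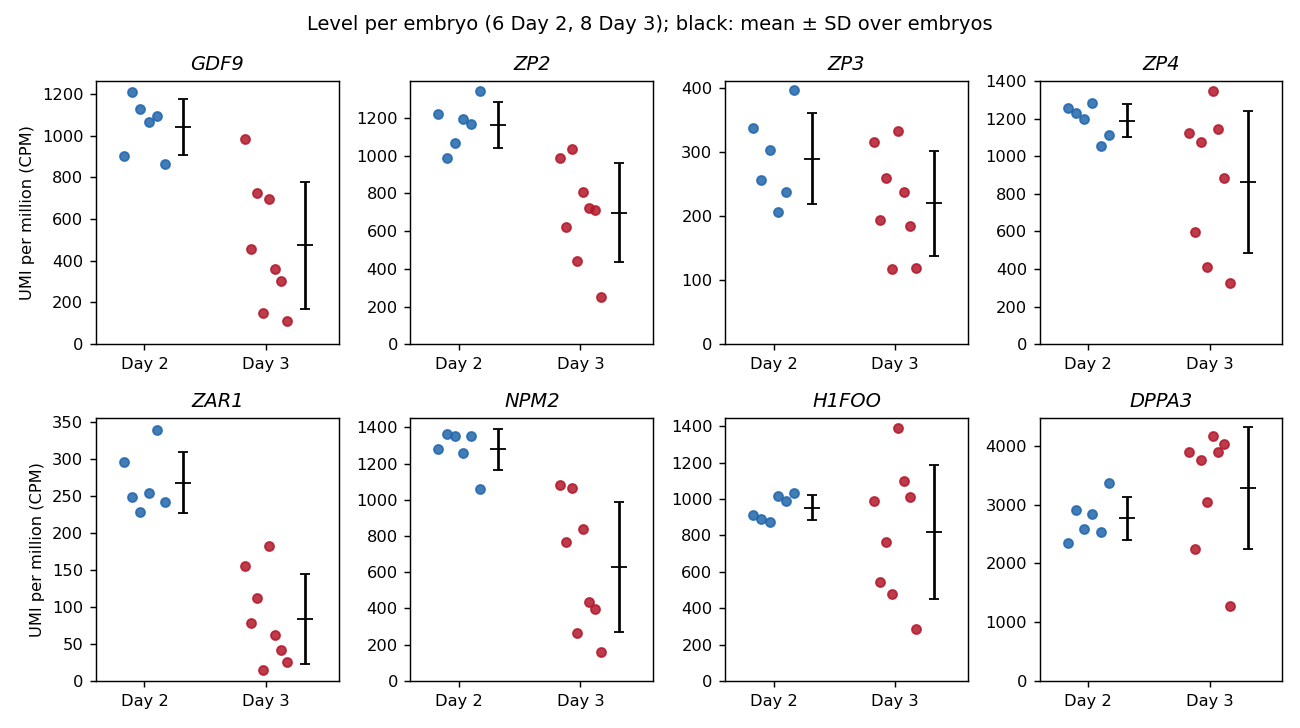
Level of each member in UMI per 1000000 UMI on genes (CPM, y axis from 0) in the 6 Day 2 (blue) and 8 Day 3 (red) embryos, with the mean and SD over embryos in black. The ZAR1 points of Day 3 all lie below those of Day 2, while DPPA3 lies above the Day 2 range in 5 of 8 Day 3 embryos.

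The egg coat genes all had a lower mean level on Day 3, and of them ZP2 alone passed the edgeR test given below. Their fold changes were not tested against each other. ZP2 ranged from 987 to 1342 CPM on Day 2 (median 1182) and from 250 to 1034 on Day 3 (median 716). Of the 8 Day 3 embryos, 6 were below every Day 2 embryo, and Day3-E1 and Day3-E3 lay within the Day 2 range. The mean level on Day 3 was 59.9% ± 22.6 of the Day 2 mean (SD, n = 8), and the log2 fold change of Day 3 against Day 2 was -0.53 (SE 0.19, edgeR quasi-likelihood test, Benjamini-Hochberg adjusted p = 0.0450 over 5274 genes).

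ZP4 ranged from 1052 to 1285 CPM on Day 2 (median 1215) and from 327 to 1349 on Day 3 (median 979). Its Day 3 embryos lay on both sides of the Day 2 range, 4 below it, 3 within and Day3-E5 above. ZP4 kept 72.6% ± 31.7 of its Day 2 mean (SD, n = 8), and the log2 fold change was -0.26 (SE 0.22, edgeR adjusted p = 0.356). ZP3, the least abundant of the coat genes, ranged from 205 to 396 CPM on Day 2 (median 280) and from 117 to 333 on Day 3 (median 215), and 4 of 8 Day 3 embryos overlapped the Day 2 range. It kept 75.8% ± 28.2, with a log2 fold change of -0.18 (SE 0.20, edgeR adjusted p = 0.508), so neither ZP3 nor ZP4 passed the test. Scaled to spike-in RNA, ZP4 was called lower (-0.93, edgeR adjusted p = 0.0408), as were 1907 of the 5274 genes tested. The ratio to spike-in RNA also moved with the set of barcodes.

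GDF9, the secreted ligand, ranged from 864 to 1206 CPM on Day 2 (median 1078) and from 111 to 985 on Day 3 (median 407). Day3-E1 alone reached into the Day 2 range, and the other 7 Day 3 embryos were below it. The remaining share was 45.4% ± 29.3 (SD, n = 8), and the level fell with a log2 fold change of -0.97 (SE 0.31, edgeR adjusted p = 0.0250).

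ZAR1 fell most among the 8. It ranged from 228 to 339 CPM on Day 2 (median 252) and from 14.94 to 182 on Day 3 (median 69.7). All 8 Day 3 embryos were below all 6 Day 2 embryos, which was so for no other member and for 5.385% of all genes tested. The remaining share ran from 5.58% in Day3-E4, where it rests on 5 UMI, to 67.9% in Day3-E5, with a mean of 31.3% ± 22.7 (SD, n = 8). The log2 fold change was -1.49 (SE 0.34, edgeR adjusted p = 0.00359).

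NPM2, the egg's histone chaperone, ranged from 1062 to 1363 CPM on Day 2 (median 1316) and from 162 to 1083 on Day 3 (median 602). Day3-E1 and Day3-E3 overlapped the Day 2 range, and 6 embryos lay below it. NPM2 kept 49.0% ± 28.1 of its Day 2 mean (SD, n = 8), and the log2 fold change was -0.85 (SE 0.28, edgeR adjusted p = 0.0303).

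H1FOO and DPPA3 did not pass the test. H1FOO ranged from 875 to 1030 CPM on Day 2 (median 950) and from 283 to 1391 on Day 3 (median 876), with 4 of 8 Day 3 embryos below and 2 above the Day 2 range. Its mean share of the Day 2 level was 86.1% ± 38.9 (SD, n = 8), and its log2 fold change was -0.01 (SE 0.23, edgeR adjusted p = 0.978).

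DPPA3 ranged from 2347 to 3374 CPM on Day 2 (median 2714) and from 1267 to 4169 on Day 3 (median 3826). Of the Day 3 embryos, 5 were above every Day 2 embryo, while Day3-E2 and Day3-E8 were below them all. The mean was 119% ± 37.5 of the Day 2 level (SD, n = 8), and the log2 fold change was 0.48 (SE 0.20, edgeR adjusted p = 0.0701). DESeq2 on the same sums gave 0.50 with an adjusted p of 0.0208, and edgeR without Day3-E8 or without Day3-E2 gave 0.0206 and 0.0449.

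In all, 4 of the 8 members were called lower on Day 3, against 11.28% of the 5274 genes tested, and 0 higher, against 21.18%. The median log2 fold change was -0.40 over the members and -0.04 over all genes tested. Without the TMM scaling between libraries the same 4 members were called, and DPPA3 was 0.25 (adjusted p = 0.393), with other members between -0.21 and -1.65. Scaled to the spike-in RNA, whose ratio to gene UMI differs between the barcode sets, DPPA3 was -0.26 (adjusted p = 0.487). In that fit 5 members were called lower, ZP4 with the 4 above, as were 1907 of the 5274 genes. Within plate 2, with 2 embryos of each day, GDF9, ZAR1 and NPM2 were called, at log2 fold changes of -1.89, -2.71 and -1.76. Within plate 3, with 4 Day 2 and 2 Day 3 embryos, the same genes were lower at -0.88, -0.95 and -0.89, and DPPA3 and H1FOO were called higher at 0.76 and 0.59. Of all genes, 503 of 5305 were lower within plate 2, and 561 of 5945 were lower and 905 higher within plate 3. In both plates the Day 2 embryos were of the first barcode set and the Day 3 embryos of the second. Day and barcode set therefore cannot be told apart within a plate. Plate 1 held Day 3 embryos alone. In the barcode set that holds all Day 2 embryos and 2 Day 3 embryos, ZAR1 was called, at -1.02 (adjusted p = 0.0264), and GDF9 was -0.39 (adjusted p = 0.320), NPM2 -0.30 (adjusted p = 0.271) and ZP2 -0.37 (adjusted p = 0.239). Those 2 embryos, Day3-E1 and Day3-E2, include the one that held the most GDF9 and NPM2 of Day 3. The calls of ZP2, GDF9 and NPM2 also rested on single embryos. That of ZP2 was lost without any 1 of 10 of the 14 embryos, all but Day2-E3, Day3-E1, Day3-E3 and Day3-E8 (adjusted p from 0.0229 to 0.0783 over the 14), without the filter on low counts (0.0572) and with plate as a term (0.05004). That of GDF9 was lost without Day2-E2 (0.0503), and that of NPM2 without Day2-E2 (0.0544), Day3-E4 (0.0535) or Day3-E7 (0.0501). ZAR1 passed without any 1 embryo, with adjusted p-values from 0.000896 to 0.0102.

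The Day 3 embryos differed widely in how far they had activated their genome. Activation was scored as the summed CPM of 20 genes that the study picked as first transcribed at the 8-cell stage and found in these cells, so the list is not independent of these samples. The score was 88.3 to 165 CPM in Day 2 embryos. Most of that came from 1 gene of the list, DDX3Y, and without it the Day 2 embryos had 21.3 to 39.1 CPM. On Day 3, Day3-E1 had 130 CPM, Day3-E5 had 296 and Day3-E3 had 429. Day3-E1 thus lay within the Day 2 range, but without DDX3Y it had 68.3 CPM, above every Day 2 embryo. Day3-E6, Day3-E7 and Day3-E2 stood at 872, 1002 and 1021, and the scores of Day3-E4 and Day3-E8 were highest, at 2074 and 2132.

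Of its Day 2 mean, GDF9 kept 94.5% in Day3-E1, and Day3-E5 and Day3-E3, next in the order of the score, kept 66.8% and 69.6%. Day3-E6, Day3-E7 and Day3-E2 held 34.5%, 29.2% and 43.6%, and the embryos with the highest scores, Day3-E4 and Day3-E8, held 14.34% and 10.62%. The ligand's transcript thus stood near its Day 2 level in the embryo with the lowest score and at its lowest in the pair with the highest. Over the 8 Day 3 embryos it fell by a log2 slope of -0.60 per doubling of the score (SE 0.10, edgeR adjusted p = 2.45e-05 over 5271 genes). Spearman's rho was -0.90 (exact permutation p = 0.00456, adjusted p = 0.0220 over all genes) and Pearson's r of the log2 values was -0.93 (exact permutation p = 0.00117, adjusted p = 0.0138).

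ZAR1 kept 57.9%, 67.9% and 42.0% in the embryos with the lowest scores, Day3-E1, Day3-E5 and Day3-E3. It was at 22.9%, 15.7% and 29.1% in Day3-E6, Day3-E7 and Day3-E2, and at 5.58% and 9.61% in Day3-E4 and Day3-E8. Its slope was -0.64 (SE 0.14, edgeR adjusted p = 0.000617), and even the embryos with the lowest scores were under its Day 2 range. NPM2 kept 84.8% in Day3-E1 and 12.7% in Day3-E8, with a slope of -0.48 (SE 0.11, edgeR adjusted p = 0.00100).

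The estimated slopes of the coat genes were less steep than those of GDF9, ZAR1 and NPM2, but slopes were not tested against each other. The slope was -0.31 for ZP4 (SE 0.11, edgeR adjusted p = 0.0227), -0.25 for ZP2 (SE 0.10, adjusted p = 0.0425) and -0.25 for ZP3 (SE 0.10, adjusted p = 0.0497). These calls were near the threshold: that of ZP3 was lost without any 1 of the 8 Day 3 embryos (adjusted p from 0.0515 to 0.174) and with DDX3Y left out of the score (0.0636), that of ZP2 in 4 of 8 leave-outs and that of ZP4 in 3 of 8. ZP4 and ZP3, which did not pass the test between the days, were at 113% and 115% of their Day 2 mean in Day3-E5 and at 27.5% and 40.9% in Day3-E8. H1FOO had a slope of -0.25 (SE 0.12, edgeR adjusted p = 0.0845), from 146% in Day3-E5 to 29.8% in Day3-E8. DPPA3 had the flattest slope, -0.11 (SE 0.10, edgeR adjusted p = 0.395): it stood at 136% to 151% in the 5 embryos Day3-E1, Day3-E5, Day3-E3, Day3-E6 and Day3-E7, at 110% in Day3-E4, at 81.0% in Day3-E2 and at 45.8% in Day3-E8.

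**Figure D2:**
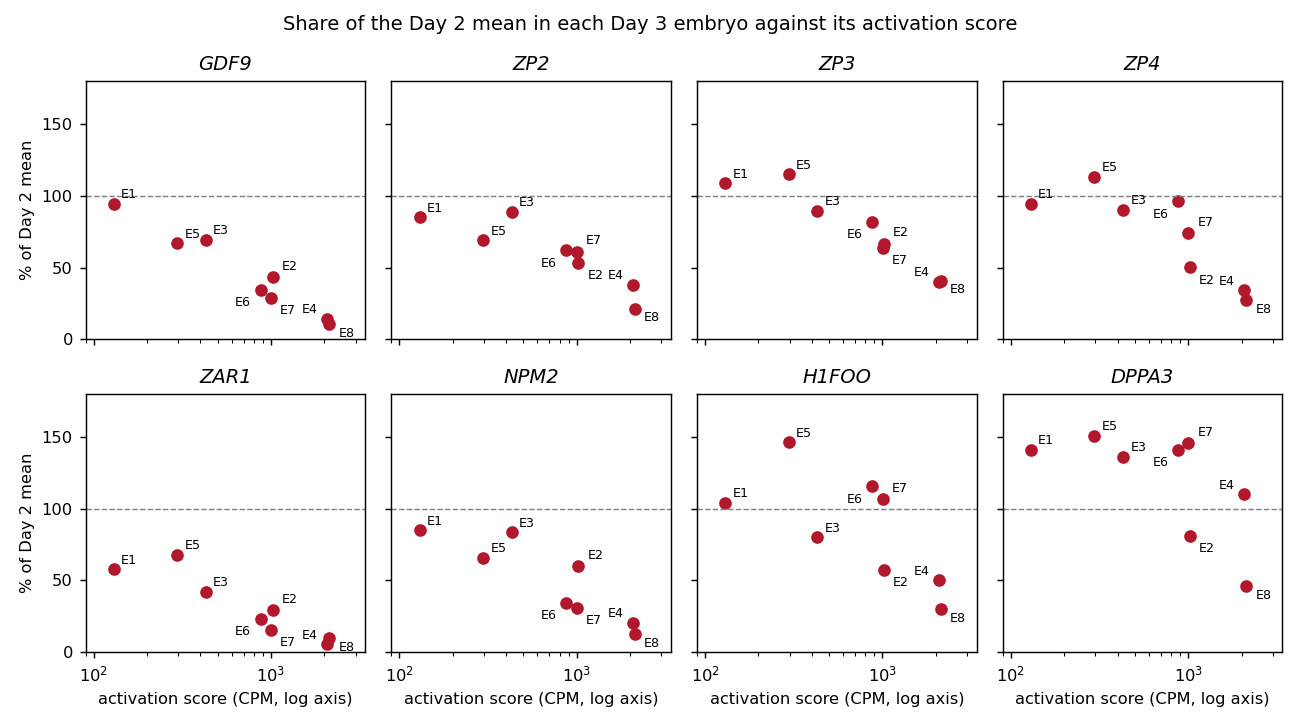
Share of the Day 2 mean left in each Day 3 embryo (y axis, percent) against the summed CPM of the 20 activation genes in that embryo (x axis, log scale), with the embryo number beside each point and a dashed line at 100%. GDF9, ZAR1 and NPM2 run down to 10.62%, 5.58% and 12.7%, and DPPA3 stays at 136% or more in 5 of 8 embryos.

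In all, 6 of 8 members fell with activation, against 15.23% of the 5271 genes tested, and 0 rose, against 23.45%. The median slope was -0.28 over the members and -0.05 over all genes. By rank, 6 of 8 fell with an adjusted p under 0.05 (exact permutation over 40320 pairings of the embryos), against 20.41% of genes, with rho from -0.88 for ZP4 and ZAR1 to -0.93 for ZP2 and ZP3. H1FOO and DPPA3 had rho of -0.74 and -0.76 (exact permutation, adjusted p = 0.0939 and 0.0805), and 34.6% of all genes had a rho of -0.7 or lower. Leaving out Day3-E8 and Day3-E4, the 2 embryos farthest from the median score, r ranged from -0.37 for H1FOO to -0.92 for GDF9, and of the slopes the one of GDF9 passed (-0.42, edgeR adjusted p = 0.0223). ZAR1 then had -0.48 (adjusted p = 0.0684) and NPM2 -0.29 (adjusted p = 0.202), so these calls rest on those embryos. Over the 6 others, r was -0.89 for ZP3, -0.85 for ZAR1, -0.79 for ZP2 and -0.74 for NPM2. It was -0.60 for ZP4 and -0.42 for DPPA3, and the median of all genes was -0.32. These r over 6 embryos were not tested. GDF9, ZAR1 and NPM2 were called without any 1 of the 8 embryos. Among the 5 embryos of the second barcode set, 5 members fell, where 378 of 5271 genes fell and 1021 rose. The 5 members were GDF9 at -0.69, ZAR1 at -0.93, NPM2 at -0.54, ZP4 at -0.53 and H1FOO at -0.53. With the score taken from the 88 marker genes that the study listed for its cluster K4, 6 members fell, where 821 of 5197 genes did. These genes also come from these cells, and the paper places most K4 cells in Day3-E4 and Day3-E8. This score is therefore not an independent check of the order of the embryos. Day3-E1, with the lowest score, also had the deepest cells of Day 3, with a median of 44621.5 UMI, against 20218 to 27301 in the others. Without it, the slopes of GDF9, ZAR1 and NPM2 were -0.75, -0.90 and -0.64.

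**Figure D3:**
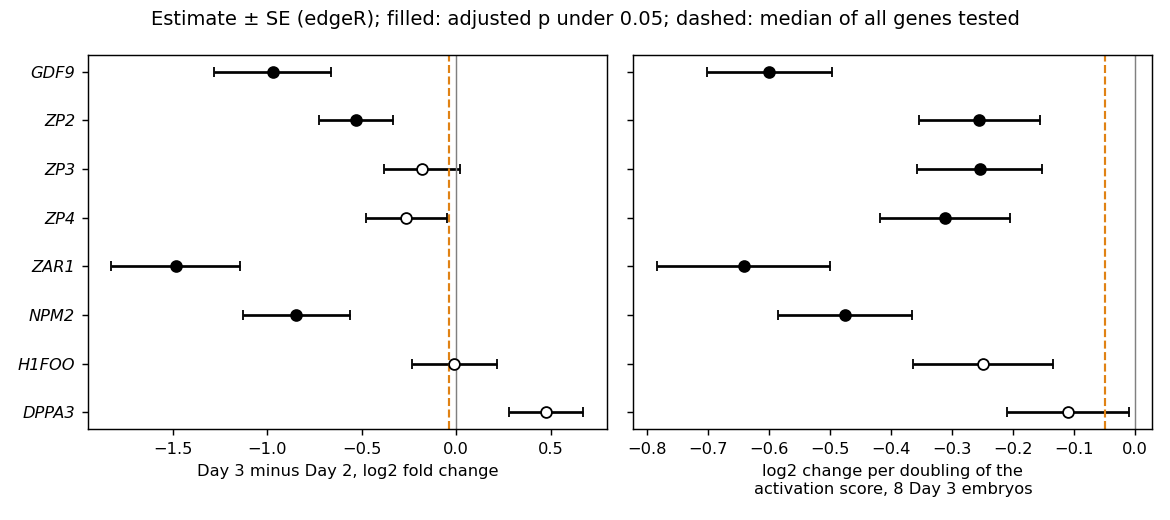
Log2 fold change of Day 3 against Day 2 over 14 embryos (left) and log2 change per doubling of the activation score over the 8 Day 3 embryos (right), each with its SE from edgeR. Filled points passed an adjusted p of 0.05, 4 on the left and 6 on the right, and the dashed lines are the medians of all genes tested, -0.04 and -0.05.

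Because CPM depend on the rest of the library, the members were also set against DPPA3 of the same embryo, a comparison chosen after its high Day 3 level had been seen. Per UMI of DPPA3, Day 2 embryos had 0.383 ± 0.067 UMI of GDF9 (SD, n = 6), and the 8 Day 3 embryos had 0.140 ± 0.073 (SD). Its Day 3 embryos lay between 0.0492 and 0.252 and its Day 2 embryos between 0.256 and 0.437, so the days did not overlap, though Day2-E6 and Day3-E1 nearly met.

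ZAR1 went from 0.0991 ± 0.025 to 0.0250 ± 0.014 UMI per DPPA3 UMI, ZP2 from 0.426 ± 0.061 to 0.213 ± 0.049 and ZP4 from 0.437 ± 0.067 to 0.259 ± 0.059 (SD, n = 6 and 8), also with no overlap. NPM2 (0.472 to 0.191), H1FOO (0.348 to 0.243) and ZP3 (0.106 to 0.0693) overlapped by 1, 1 and 4 Day 3 embryos. All 7 ratios were lower on Day 3 by the exact permutation test over the 3003 assignments of days to embryos, adjusted over all genes (adjusted p from 0.0124 to 0.0421), where 36.77% of genes were. The log2 fold change of DPPA3 itself, 0.48 by edgeR, enters every ratio. The test therefore cannot tell a lower member from a higher DPPA3, and by edgeR H1FOO itself had -0.01 and ZP3 -0.18. The days did not overlap for 4 of 7, against 11.06% of genes. In the first barcode set, with 2 Day 3 embryos, the log2 change of GDF9 shrank from -1.62 to -0.73, and ZP3 at -0.30 (exact permutation p = 0.321) and NPM2 at -0.59 (p = 0.0714) did not pass, while the other 5 had p = 0.0357, the smallest that this design allows. The largest change was that of ZAR1, -2.21 on the log2 scale, and the smallest that of H1FOO, -0.54.

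The depth of cells moved with this ratio. DPPA3 was at 4889 CPM in the 6 Day 2 cells under 10000 UMI and at 2656 in the 28 with 60000 or more, and H1FOO at 1989 and 909. In cells of 30000 to 60000 UMI, GDF9 per DPPA3 UMI was 0.334 in 6 Day 2 cells and 0.157 in 41 Day 3 cells. ZAR1 had 0.0821 and 0.0297 there. At 10000 to 30000 UMI, GDF9 had 0.201 (3 Day 2 cells) and 0.135 (58 Day 3 cells), and ZAR1 0.0876 and 0.0208. Under 10000 UMI, GDF9 had 0.234 (6 Day 2 cells) and 0.0674 (15 Day 3 cells). In that class the days were alike for ZAR1, at 0.0207 and 0.0216 on 3 and 8 UMI, and for H1FOO, at 0.407 and 0.402. With cells of 10000 to 60000 UMI alone, 1 of 7 ratios kept the days apart, with 30000 or more 5 of 7 and with 10000 or more 4 of 7. The part of depth in the ratio was not tested further.

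**Figure D4:**
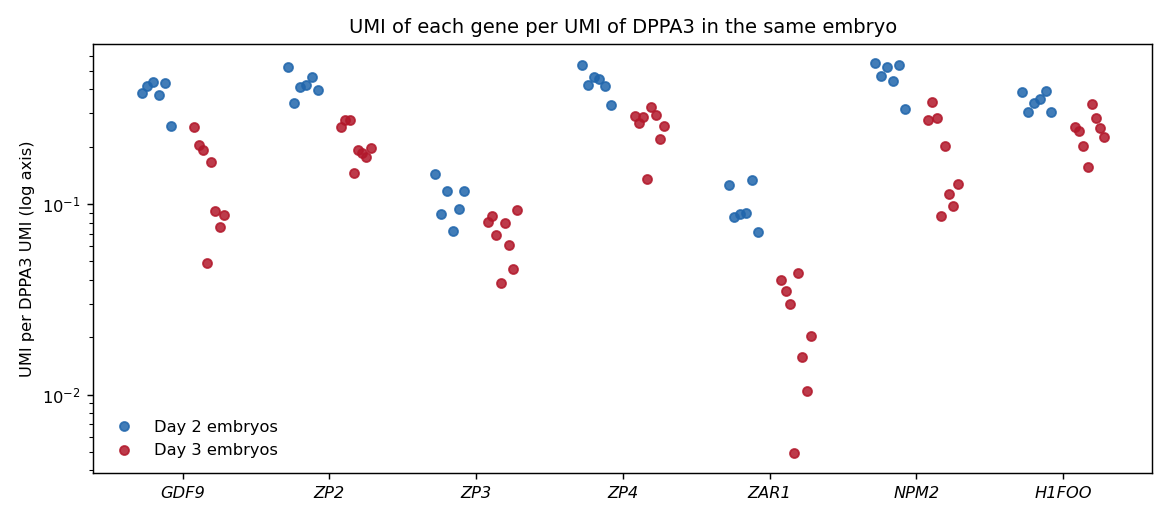
UMI of 7 members per UMI of DPPA3 in the same embryo (y axis, log scale) for the 6 Day 2 (blue) and 8 Day 3 (red) embryos. The days do not overlap for GDF9, ZP2, ZP4 and ZAR1, and 4 of 8 Day 3 embryos overlap with Day 2 for ZP3.

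In single cells, these transcripts were nearly everywhere. DPPA3 and H1FOO were detected in all 43 cells of Day 2 and all 118 cells of Day 3. All cells were blastomeres, so no cell type that should lack these mRNAs was there to give the level of free RNA. ZAR1 was detected in 40 of the 43 cells of Day 2 (93.0%, Wilson interval at the 95% level 81.4 to 97.6) and in 80 of the 118 of Day 3 (67.8%, 58.9 to 75.6), with medians of 22 and 1 UMI per cell.

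Thinned to 10000 UMI per cell, which left out 6 Day 2 and 15 Day 3 cells, ZAR1 was found in 37 of 37 Day 2 and 53 of 103 Day 3 cells (51.5%, Wilson interval 41.9 to 60.9). Per embryo that share was 100% in all 6 of Day 2 and 50.9% ± 29.8 on Day 3 (SD, n = 8, two-sided exact permutation p = 0.00333), from 18.2% in Day3-E4 to 92.3% in Day3-E3. A thinned median of 1 UMI on Day 3 is near the least that can be counted. ZP3, thinned likewise, was in 37 of 37 and 88 of 103 cells (mean per Day 3 embryo 85.4% ± 15.8, n = 8, exact permutation p = 0.0456), though unthinned its share was 93.0% of Day 2 and 94.9% of Day 3 cells. GDF9 was in 100% of Day 2 and 94.1% of Day 3 cells unthinned (exact permutation p = 0.0176 over embryos) and in 37 of 37 and 88 of 103 thinned (p = 0.0829, exact). The remaining members were in 93.2% or more of the cells of each day at either depth. These intervals cover counting error only, and cells of 1 embryo are not independent.

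On Day 2, sibling blastomeres differed most in DPPA3 and H1FOO among the members. There, the index of dispersion of DPPA3 over the cells of an embryo, which is 1 when cells of the same total differ by counting alone, had a median of 13.67 over embryos (9.20 to 16.36), and that of H1FOO one of 4.81 (1.45 to 20.2). The median over genes at 100 CPM or more was 1.46. As a coefficient of variation beyond counting, DPPA3 varied by 21.7% and H1FOO by 22.7% (medians over 6 embryos), while the other members had medians from 1.38% for ZAR1 to 11.59% for ZP3. On Day 3 the medians were 24.1% for DPPA3 and 25.5% for H1FOO, and the others ran from 16.23% for ZP4 to 33.5% for ZAR1, and ZAR1, NPM2 (28.9%) and ZP2 (25.6%) were above both. Depth moved with the level here too: Spearman's rho of the level with the cell's total was negative in 5 of 6 Day 2 embryos for both DPPA3 (median -0.61) and H1FOO (median -0.40), over 6 to 9 cells that share a library, and its part was not tested.

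The balance of GDF9 and DPPA3 was also read cell by cell, in cells with at least 20 UMI of the pair. GDF9 made up 20.4% to 30.4% of the pair's UMI in Day 2 embryos and 4.70% to 20.3% in Day 3 embryos. In Day3-E4 the median cell had 3.85%, and the highest of its 11 cells 13.79%. Of the Day 2 embryos, the lowest cell was above that in 5 and below it in Day2-E6, at 11.76%. In Day3-E5 the cells ran from 0% to 29.7%, the widest range of any embryo, over 16 cells, the most of any. Cells at 0% were also found in Day3-E4, Day3-E6 and Day3-E7. Set against counting alone, the spread (chi-square over degrees of freedom) was 2.95 in Day3-E5, between 0.66 in Day3-E8, the lowest, and 4.93 in Day2-E1, the highest. The range thus does not set Day3-E5 apart.

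**Figure D5:**
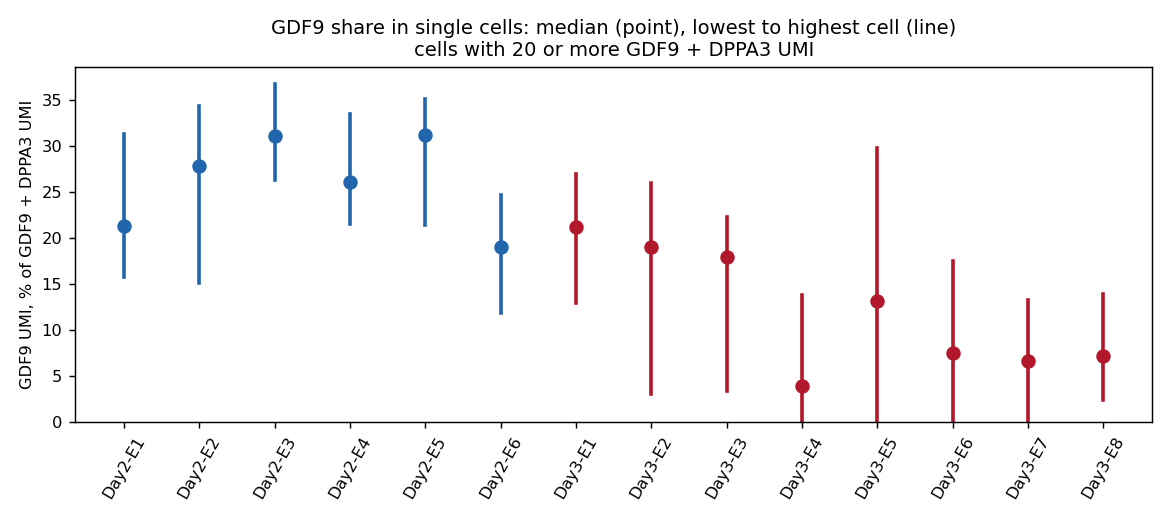
GDF9 UMI as a percent of GDF9 and DPPA3 UMI (y axis from 0) in the cells of each embryo with 20 or more UMI of the pair: the point is the median cell and the line runs from the lowest to the highest cell. Day 2 medians (blue) lie between 19.0% and 31.2%, and Day 3 medians (red) between 3.85% and 21.2%.

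Within a Day 3 embryo, the cells with more activation UMI tended to hold less NPM2 and H1FOO, which had the lowest median rho of the 8 members. Over the 11 to 14 cells per embryo thinned to 10000 UMI, rho of the NPM2 count with the summed count of the 20 activation genes was negative in 8 of 8 embryos (median -0.40, from -0.70 to -0.03), and that of H1FOO in 7 of 8 (median -0.37). For the sum of the members it was negative in 8 of 8 (median -0.33), for GDF9 in 7 of 8 (median -0.18), for DPPA3 in 5 of 8 (median -0.28) and for ZAR1 in 4 of 8 (median 0.00034). ZP2 and ZP4 were negative in 5 of 8 (medians -0.13 and -0.16) and ZP3 in 4 of 8 (median -0.03). These are descriptions over few and sparse counts from shared libraries, and the values for ZAR1 show no relation. No such value was computed over all genes, and counts thinned to 1 total are not free of each other. A negative rho here can therefore not be called particular to a member.

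Other genes of the same pathways were looked at by list. Of all genes tested, 11.28% were lower and 21.18% higher on Day 3, and 15.23% fell and 23.45% rose with activation. The lists are short, and no count was tested against these shares. Of 30 genes for the processing, receptors and SMAD signalling of BMP15 and GDF9, 24 had a row and 15 were tested, of which 4 were lower on Day 3 and 2 higher (median log2 fold change -0.35, all genes -0.04). SMAD1, a transducer of BMP signals, went from 87.5 ± 18.3 to 24.0 ± 15.03 CPM (log2 fold change -1.63, edgeR adjusted p = 0.000892), with no overlap between the days. ACVR1, a type I receptor, went from 84.5 to 36.5 CPM (-0.95, adjusted p = 0.00418), and the receptors BMPR1A and BMPR1B, named after their values were seen, were lower by -0.89 and -0.62. ID2, a target of BMP signals, rose from 4.62 to 63.5 CPM (4.02, adjusted p = 0.00190), and ACVR2B, a type II receptor, from 47.5 to 105 CPM (1.51, adjusted p = 0.0160). With activation, 4 of the 15 fell and 2 rose.

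Of 18 egg surface, fertilisation and cortical granule genes, 8 were tested, with 3 lower (all genes 11.28%), 0 higher (all genes 21.18%) and a median log2 fold change of -0.80. They were OOSP1, an oocyte secreted protein, at 3246 ± 725 and 1179 ± 766 CPM (-1.24, edgeR adjusted p = 0.0177), ITGB1, an integrin subunit (-0.91, adjusted p = 0.00649), and KIT, the receptor of KIT ligand (-0.79, adjusted p = 0.00997). OOSP1 was more abundant than any coat gene on Day 2, and its slope on activation was -0.06 (adjusted p = 0.809). Of 14 oocyte transcription factors, 5 were tested and TAF4B, a TFIID subunit, was called, from 22.1 to 87.7 CPM (2.28, adjusted p = 0.000752).

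Of 32 genes for the storage and clearance of maternal mRNA, 15 were tested. Here 5 were higher on Day 3 and 1 lower (median log2 fold change 0.28), where 21.18% and 11.28% of all genes were. ZCCHC6, which adds uridines to mRNA tails, rose from 355 ± 49.7 to 2559 ± 1771 CPM (3.24, edgeR adjusted p = 0.000394). KIAA0430, an oocyte RNA-binding protein, rose from 78.0 to 292 CPM (2.27, edgeR adjusted p = 0.000725) and PAPD4, a cytoplasmic poly(A) polymerase, from 146 to 267 (1.22, adjusted p = 0.00702). ZFP36L2, which promotes mRNA decay, was also higher (2.28), and the lower gene was DDX6, a helicase of stored and repressed mRNA (-0.72), both named after their values were seen. The same 5 higher genes also rose with activation, and 5 others of the 15 fell with it, where 23.45% and 15.23% of all genes did. ZAR1L, the relative of ZAR1, was at 1157 ± 138 CPM on Day 2 and 669 ± 292 on Day 3 (log2 fold change -0.59, adjusted p = 0.0549) and was looked up after its values were seen.

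Of 24 nucleoplasmins, linker histones and histone chaperones 18 were tested, with 3 lower (all genes 11.28%) and 1 higher (all genes 21.18%). The median log2 fold change of the 18 was -0.24. SUPT16H (-0.78, edgeR adjusted p = 0.0154), NAP1L4 (-0.61, adjusted p = 0.0384) and ASF1A (-0.70, adjusted p = 0.0427), all histone chaperones, were lower. SSRP1, the partner of SUPT16H in the FACT complex, was higher (0.49, adjusted p = 0.0275). NPM1 and NPM3, the nucleoplasmins related to NPM2, had log2 fold changes of 0.36 (adjusted p = 0.119) and -0.24 (adjusted p = 0.498). Of 10 partners of DPPA3 and other developmental pluripotency associated genes 4 were tested: XPO1, a nuclear export receptor, rose from 112 to 348 CPM (2.00, adjusted p = 0.00226) and DPPA2 from 1.44 to 29.8 CPM (4.24, adjusted p = 0.00250). Of the 4 early embryo markers, OOEP, an oocyte protein of the maternal complex, was lower (-0.56, adjusted p = 0.0344) and SALL4, a pluripotency factor, higher (0.55, adjusted p = 0.0306), and 0 of 3 cumulus markers tested were called in either direction. No sperm marker was abundant enough to be tested.

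Over the 14 embryos, the genes whose log2 level was most like that of the summed members were AP3B2, PARN, PAIP1, ESD and EXT1, with Pearson's r of 0.979 to 0.973. PARN is a deadenylase and PAIP1 binds poly(A)-binding protein. For single members the closest genes were CHAF1A for GDF9 (r = 0.995), TUBE1 for ZP2 (0.977), HMGB3 for ZP3 (0.930), LOC788736 for ZP4 (0.977), MCPH1 for ZAR1 (0.989), PPME1 for NPM2 (0.988), PGAM5 for H1FOO (0.968) and ABL1 for DPPA3 (0.927). These values describe 14 embryos that share the day difference and the sequencing depth. Among the members themselves, over the 8 Day 3 embryos, r was highest between GDF9 and NPM2 (0.980) and lowest between ZAR1 and DPPA3 (0.506), and H1FOO was closest to ZP4 (0.953) and DPPA3 (0.913).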

How the data were processed

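Per the labels and methods, blastomeres were sequenced by SCRB-Seq, and the authors mapped reads with STAR (version 2.5.2b) to the bovine genome (btau7) plus 92 ERCC sequences and deposited whole-number UMI counts per gene and cell. The deposited normalised table (161 columns) was not used, since the tests need UMI counts. Here cells with 2000 or more UMI on genes were kept (161 of 170; 9 left out), counts were summed per embryo, and embryos were taken from the embryo label. Days were compared with edgeR 4.0.16 (quasi-likelihood, filterByExpr, TMM) over 14 embryos and 5274 genes, and the slope on log2 activation score over 8 Day 3 embryos, with Benjamini-Hochberg adjustment. Single values were tested by exact permutation over embryos, correlations on log2(CPM + 1) and ratios on log2 with 0.5 UMI added. DESeq2 1.42.0 served as an alternative, beside other scalings, filters, plates, barcode sets and left-out embryos. Named genes were the 9 members, up to 4 called genes of lowest p per list and the genes most like the members, of which 1 is not reported here. The members and lists were chosen with earlier results of these data known. Whether the embryos share parents is not given, so p-values measure the spread between these embryos. Plates are those of the sample titles. Barcode sets were inferred from which embryos share cell barcodes. Embryo numbers did not pair embryos of the 2 days (correlations of deviations from -0.13 to 0.03). The scripts were tested on simulated data. Symbols were matched to RefSeq gene tables for 9 of 9 members. Coordinates and sequences are not used here.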

Additional observations from a re-analysis of the deposited data

Results flagged for a closer look

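Among 32 sets of values tested for 1 embryo far from the others of its day (8 members, the activation score and the 7 ratios to DPPA3, each day apart), 2 stood out, where chance gives about 1 in 20. In both, Day2-E6 was the lowest of the 6 Day 2 embryos. Its NPM2 level was 1061.75 CPM, where the other Day 2 embryos had 1259 CPM or more. Its GDF9 count was 0.255908 per UMI of DPPA3, where the others had 0.373 or more. Day2-E6 also had the highest DPPA3 level of Day 2, 3374 CPM, and the fewest UMI of a Day 2 embryo, 438899. Without it, the log2 fold change of NPM2 between the days stayed negative and called. The part of depth in either value was not tested.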

How the results depend on the processing

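Beside 4 members lower and 0 higher on Day 3 (595 and 1117 of all genes), the fit gave 981 genes lower without TMM scaling, 1907 lower and 456 higher when scaled to spike-in RNA, and 1 member (ZAR1), 24 genes lower and 327 higher in the first barcode set. DESeq2 called 1 member higher (DPPA3), and plate 3 alone 2 (DPPA3, H1FOO). Without 1 embryo, 1 to 4 members were lower and 0 to 1 higher, with 420 to 919 genes lower and 907 to 1244 higher. DPPA3 turned to -0.26 when scaled to spike-in RNA. H1FOO, near 0, turned to 0.21 with plate as a term, 0.014 by DESeq2 and 0.59 within plate 3, and ran from -0.12 to 0.070 without 1 embryo. ZP3 and ZP4 were 0.21 and 0.17 within plate 3. The share of cells with ZP3 fell by 14.61 percentage points when thinned. The cause was not tested.

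Embryo numbers are shared by name only (0 of 6 numbers correlated best with their own), and with them as a replicate block 1 member, ZAR1, was lower, and 207 genes lower and 599 higher.

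Beside 6 members and 803 genes falling with activation (1236 rising), 1463 genes fell without TMM scaling, 378 in the second barcode set, and 1 member and 72 genes, with 640 rising, without Day3-E8 and Day3-E4. Without 1 embryo, 3 to 6 members and 356 to 822 genes fell, the 3 without Day3-E4, Day3-E5 or Day3-E8. The share left on Day 3, as summed UMI rather than CPM, was lower for all 8 members, from 19.8% for ZAR1 to 71.7% for DPPA3, with ZP2 at 37.3%, and per spike-in UMI it was 24.7% to 83.5%. Within plates, barcode sets, cells of set depth, Pearson's r and the ratio to DPPA3 were chosen after seeing the data. Depth limits ZAR1 most, with 5 to 93 UMI in a Day 3 embryo.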
